A study of Mus musculus with 4 samples.

Results

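Constitutive distal open regions were defined here as stretches of DNA that were strongly accessible in all 4 libraries of the series and that lay far from any protein-coding gene. Each library's peak list was ordered by the authors' −log10 p and the 30000 strongest peaks were kept. A control peak was a member when it overlapped a kept peak in each of the 3 other lists, its midpoint lay outside every RefSeq protein-coding gene, and that midpoint was more than 50000 bp from any protein-coding gene end. The rule found 2674 members among the 30000 strong control peaks and among 4344 strong control peaks at that distance. Because the members were chosen by −log10 p and overlap in these same lists, overlap, rank and enrichment are given below as descriptions with no test.

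The 4 ATAC-seq libraries were all made from dermal fibroblasts of the strain C57BL/6, and every title carries 100 days without saying what the days count. The control library came from Sod2+/+ cells and the knockout library from Sod2-/- cells of a conditional knockout, for which the sources used here name no Cre driver. The vehicle library came from Sod2+/+ cells given vehicle, and the rotenone library from Sod2+/+ cells given rotenone at 250 µM. Sod2 is the mitochondrial superoxide dismutase, and rotenone inhibits complex I of the respiratory chain. There was 1 library per group, so no value below has a replicate error, no test between groups was possible, and any difference between libraries may be a difference between preparations. Of 12 fibroblast marker genes, Col1a2, Vim and Fn1 had a strong peak within 1000 bp of a gene end in every library, and Pdgfrb had one in the control and vehicle libraries. None of 6 immune markers had a strong peak in any library. The keratinocyte gene Krt14 and the endothelial gene Tek had one in all 4, and Krt10 in the knockout and rotenone libraries. The part of such cells in the values below was not tested.

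In ATAC-seq the transposase Tn5 cuts DNA that is not wrapped tightly in nucleosomes, so a peak marks accessible chromatin. Accessible DNA far from genes includes enhancers, which bind transcription factors and can act on promoters over long distances, and sites of CTCF, which helps to fold chromosomes into loops. AP-1, a dimer of Jun and Fos family proteins that includes JunB, is a common factor at fibroblast enhancers. RUNX and TEAD factors are often found beside it, and the cAMP response element is bound by CREB and ATF proteins.

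No genome was at hand, so sequence could be read only where a member covered the start of an annotated RNA gene. RefSeq (GRCm38.p6) start windows run from 250 bases before to 50 bases after a gene's start. Of the 2674 members, 61 overlapped such a window, and 49 covered at least 150 of its 300 bases. All 49 belonged to long non-coding RNA (lncRNA) genes. The 6 windows below were printed because they hold some of the motif matches that the counts rest on, or hold none of AP-1 and CTCF core. The first 3 and the last had the best mean rank of their kind among windows that a member covered in full, A530046M15Rik has the most AP-1 matches, and Morrbid is a lncRNA with a name of its own. Both of these were chosen after their matches were seen. Each is written 5′ to 3′ on the strand of its gene, with AP-1 (TGANTCA) and CTCF core matches in capitals. Distances to the start are counted from the first base of a match.
Gm26901, chr1:7398047-7398346, minus strand: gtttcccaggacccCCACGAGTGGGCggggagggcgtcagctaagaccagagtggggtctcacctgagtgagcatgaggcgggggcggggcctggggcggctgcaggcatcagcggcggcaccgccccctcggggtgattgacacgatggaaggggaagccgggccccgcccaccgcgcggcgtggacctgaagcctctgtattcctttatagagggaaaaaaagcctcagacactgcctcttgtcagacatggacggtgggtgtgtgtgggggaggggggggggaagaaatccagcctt
Gm8883, chr1:71887862-71888161, plus strand: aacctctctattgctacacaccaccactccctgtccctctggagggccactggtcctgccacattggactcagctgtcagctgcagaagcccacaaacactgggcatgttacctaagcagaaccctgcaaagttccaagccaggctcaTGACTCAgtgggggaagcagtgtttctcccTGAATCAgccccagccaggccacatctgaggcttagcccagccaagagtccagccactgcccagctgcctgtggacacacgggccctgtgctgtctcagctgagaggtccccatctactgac
Gm30657, chr5:118413532-118413831, minus strand: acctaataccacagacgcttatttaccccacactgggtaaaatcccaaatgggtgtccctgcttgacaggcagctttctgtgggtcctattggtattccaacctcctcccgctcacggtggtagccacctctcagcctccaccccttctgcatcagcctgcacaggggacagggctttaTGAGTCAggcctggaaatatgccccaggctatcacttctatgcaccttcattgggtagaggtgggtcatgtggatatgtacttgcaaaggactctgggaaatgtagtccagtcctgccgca
A530046M15Rik, chr13:15806993-15807292, plus strand: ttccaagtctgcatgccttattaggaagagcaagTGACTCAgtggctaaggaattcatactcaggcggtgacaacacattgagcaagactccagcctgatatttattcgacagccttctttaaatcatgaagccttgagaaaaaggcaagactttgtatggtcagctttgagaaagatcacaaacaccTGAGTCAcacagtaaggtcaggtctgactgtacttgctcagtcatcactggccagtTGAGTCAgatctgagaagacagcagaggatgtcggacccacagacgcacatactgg
Morrbid, chr2:128429302-128429601, minus strand: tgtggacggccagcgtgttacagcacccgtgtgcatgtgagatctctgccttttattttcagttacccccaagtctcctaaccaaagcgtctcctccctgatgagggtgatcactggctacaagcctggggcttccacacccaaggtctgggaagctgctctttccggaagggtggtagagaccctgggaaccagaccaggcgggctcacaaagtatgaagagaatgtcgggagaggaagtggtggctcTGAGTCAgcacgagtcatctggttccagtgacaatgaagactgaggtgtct
BC002059, chr17:16951286-16951585, plus strand: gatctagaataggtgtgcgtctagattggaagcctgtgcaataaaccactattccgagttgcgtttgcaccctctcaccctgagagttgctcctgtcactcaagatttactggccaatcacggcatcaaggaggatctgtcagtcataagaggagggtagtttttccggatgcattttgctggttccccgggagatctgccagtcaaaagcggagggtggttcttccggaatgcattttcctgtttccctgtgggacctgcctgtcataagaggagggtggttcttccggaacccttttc

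The Gm26901 window holds a CTCF core match, CCACGAGTGGGC, 236 bases before the start and no AP-1 match. Its member lay 224394 bp from Pcmtd1 and had a fold enrichment of 9.78 in control, 8.87 in knockout, 9.99 in vehicle and 10.5 in rotenone. The 4 values differed little, and its rank stayed between 571 and 954 in the 4 lists.

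The Gm8883 window lies 234740 bp from Fn1, the gene of the matrix protein fibronectin, and holds AP-1 matches TGACTCA and TGAATCA, 102 and 72 bases before the start. Its member had a fold of 12.8 in control, 10.3 in knockout, 13.7 in vehicle and 10.8 in rotenone, so both Sod2+/+ libraries without rotenone were above the other two. The Gm30657 window, 146652 bp from Med13l, a subunit of the Mediator kinase module, holds TGAGTCA 71 bases before the start. Its member had folds of 12.6, 8.85, 14.5 and 12.5 in control, knockout, vehicle and rotenone, and the knockout value was the low one.

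The A530046M15Rik window lies 77009 bp from Gli3, a transcription factor of the Hedgehog pathway that patterns the limb. It holds 3 AP-1 matches, TGACTCA 216 bases and TGAGTCA 62 and 6 bases before the start. Its member had nearly the same fold in all 4 libraries, 8.02 in control, 7.38 in knockout, 7.54 in vehicle and 7.89 in rotenone. The Morrbid window has TGAGTCA 1 base before the start, and its member was among the weaker ones, with folds of 6.29, 5.14, 7.10 and 4.65 in control, knockout, vehicle and rotenone. BC002059 has neither motif, and its member ranked between 282 and 564 in the 4 lists.

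An AP-1 match occurred in 19 of the 49 member windows (38.8%, 95% Wilson interval 26.4 to 52.8, counting error only). The share was 35.0% of 20 windows under distal strong control peaks that were not shared by all 4 lists (18.1 to 56.7), so the 2 kinds of distal peak could not be separated on this motif. It was 4.48% of 4195 windows under constitutive peaks at protein-coding gene ends, 10.8% of 2697 distal windows without a strong control peak, and 7.91% of all 27025 genes with a window. The interval of the member windows lies above each of these last 3 shares.

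RUNX (TGTGGT) matched in 16 of the 49 member windows (32.7%, 21.2 to 46.6) and in 30.0% of the 20 unshared distal windows, against 11.4% at constitutive gene ends, 20.3% of distal windows without a strong peak and 17.0% of all windows. CTCF core matched in 2 (4.08%, 1.13 to 13.7), against 3.24%, 1.63% and 2.38%, and the second of these was GCCCTCTGCTGG in Gm52265. TEAD (GGAATG) matched in 14.3%, close to the 14.6% of all windows. The cAMP response element (TGACGTCA) matched in 2 (4.08%), against 3.84% at constitutive gene ends, 0.482% of distal windows without a strong peak and 1.78% of all windows. The NFI palindrome, bound by nuclear factor I, matched in none of 49 and in 0.0333% of all windows. Both strands were searched, and a base could count towards more than 1 motif. The median GC content was 52.3% in member windows, 62.0% at constitutive gene ends and 45.3% in distal windows without a strong peak, and its part in the motif shares was not tested. These 49 windows sit at lncRNA starts and are 49 of 2674 members, so they do not stand for the others. A match is a run of letters and not a bound site.

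**Figure D1:**
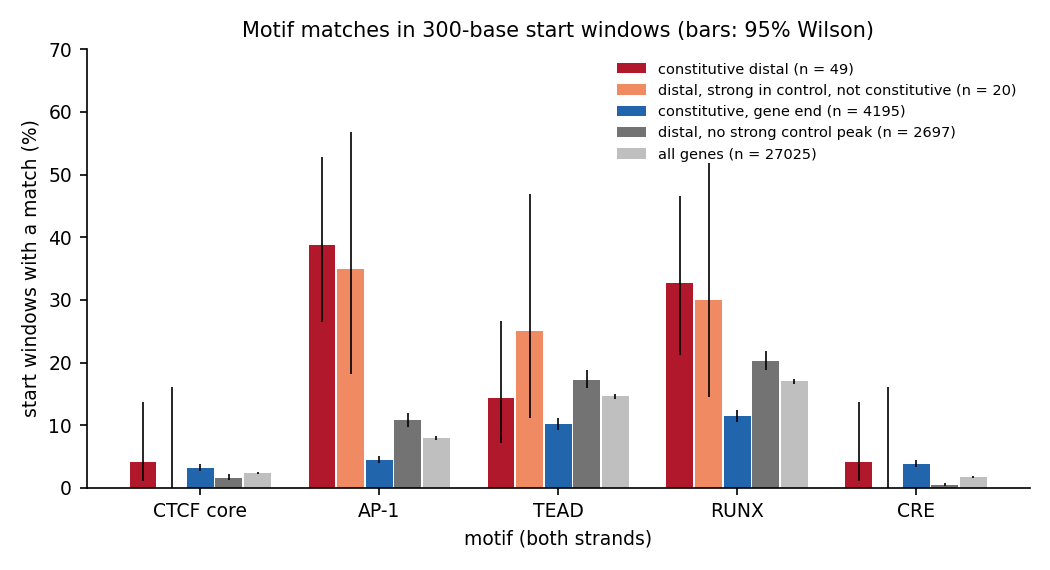
Share of start windows with a match to each of 5 motifs, on either strand, in percent. Bars are 5 sets of windows, lines are 95% Wilson intervals. AP-1 matched in 38.8% of the 49 windows under constitutive distal regions and in 4.48% under constitutive gene-end peaks.

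Distal regions were shared by the 4 libraries about as often as other sites away from gene ends. Of 4344 distal strong control peaks, 2674 were constitutive (61.6%, 60.1 to 63.0), against 65.6% of all strong control peaks. The share was 58.6% between genes up to 50000 bp from a gene end, 61.9% inside genes, and 80.2% within 1000 bp of a gene end (79.3 to 81.1). Gene ends were thus the class that stood apart. Sharing followed strength, from ranks 1 to 5000 down to ranks 25001 to 30000. The gene-end share was 99.9%, 97.7%, 89.5%, 74.3%, 51.9% and 29.9% in the 6 rank bins from strongest to weakest, against 99.5%, 94.7%, 80.8%, 55.1%, 35.7% and 17.8% for distal peaks. The gap was thus small among the strongest peaks and widest at ranks 15001 to 20000.

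**Figure D2:**
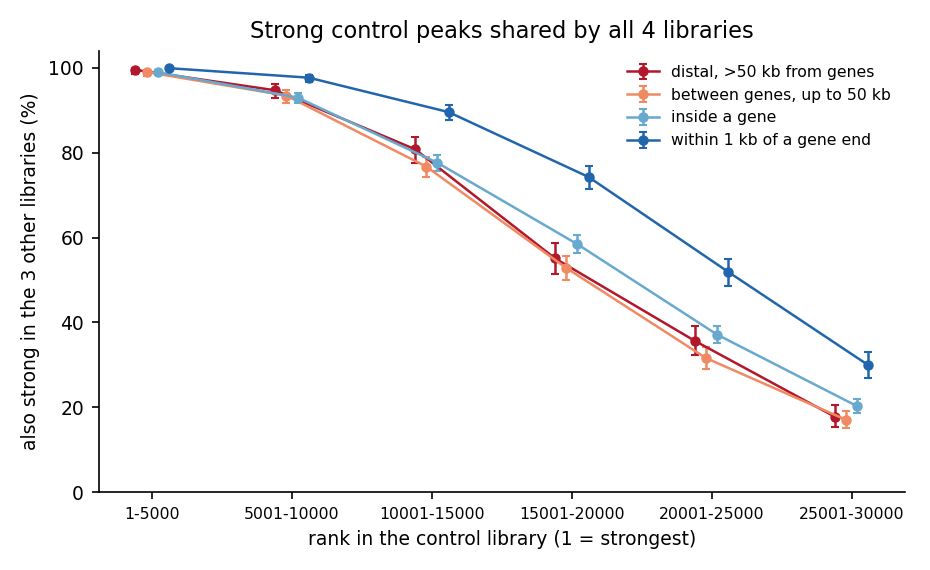
Share of strong control peaks that were also strong in the 3 other libraries, in percent, by rank in the control library and by position. Points are shares and lines 95% Wilson intervals, which cover counting error only. The distal share falls from 99.5% to 17.8%, and the gene-end curve lies at 29.9% in the weakest bin.

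The 1670 distal control peaks that were not constitutive were seldom without any counterpart. Of those without a strong knockout partner, 99.1% overlapped a weaker knockout peak, and the shares were 99.5% for vehicle and 97.0% for rotenone. The largest set of these, 470 peaks, was shared with the vehicle list alone, which is 10.8% of distal strong control peaks. A further 354 (8.15%) were in no other strong list, and 216 (4.97%) were missing from the vehicle list alone. The same shares were 13.2%, 8.14% and 4.63% between genes, 12.7%, 7.41% and 4.26% inside genes, and 5.17%, 3.33% and 2.71% at gene ends. Median control fold was 6.01 in the set shared with vehicle alone, against 7.76 among the members. Most control peaks outside the set thus had a counterpart below rank 30000 and were not without one.

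Enrichment of the members over local background was highest in the vehicle and control libraries. The median fold was 7.76 in control, 6.28 in knockout, 8.11 in vehicle and 6.80 in rotenone. Both the control and the vehicle fold exceeded both others in 1614 members (60.4%), and both lay below in 189 (7.07%). The same pattern held over all constitutive regions, at 57.8% and 7.45%, and the strong peaks of each whole list had medians of 6.78, 5.49, 7.13 and 5.99. The order of the libraries in fold was thus shared by the members, by all constitutive regions and by the whole strong lists. The lists held 433013, 585165, 340240 and 347438 peaks for control, knockout, vehicle and rotenone, and read depth is unknown. Fold at constitutive gene ends was similar in control (7.88) and somewhat higher than distal in rotenone (7.43).

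Distal regions were narrow. Their median width was 374.5 bp in control, 310 bp in knockout, 355 bp in vehicle and 293 bp in rotenone, against 596, 455, 562 and 465 bp at constitutive gene ends. They were close to the constitutive regions between genes in width (376 bp in control) and slightly narrower than those inside genes (403 bp). Width in both the control and vehicle lists exceeded both others in 1310 members (49.0%; 53.7% of all constitutive regions).

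**Figure D3:**
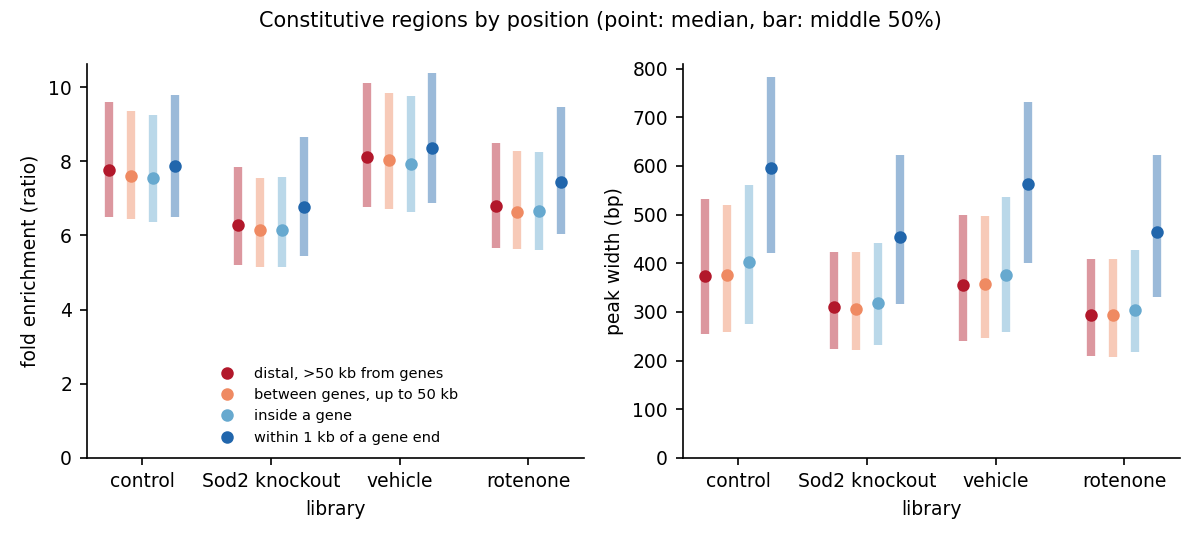
Fold enrichment (ratio, left) and peak width (bp, right) of constitutive regions in the 4 libraries, by position. Points are medians and thick bars the middle 50% of regions. The distal medians run from 6.28 to 8.11 in fold and from 293 to 374.5 bp in width, and gene-end peaks are wider in every library.

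To compare libraries whose lists differ in scale, each region was given a standing, its percentile by −log10 p among the same 19675 constitutive regions of that library, with 100 the strongest. The median member stood at 49.0 in control, 49.5 in knockout, 47.2 in vehicle and 48.0 in rotenone, against 58.0 to 61.6 for gene-end regions. A shift of 20 points or more between 2 libraries was counted. Between knockout and control, 432 members stood lower (16.2%, against a background of 15.8% of all constitutive regions) and 467 higher (17.5%, background 15.8%). Between rotenone and vehicle, 426 stood lower (15.9%, background 15.5%) and 438 higher (16.4%, background 15.5%). The members' shares are near the background in both contrasts and in both directions. That background joins unlike classes. Between knockout and control, constitutive regions between genes and inside genes had 18.9% and 18.3% lower and 15.6% and 16.2% higher. Between rotenone and vehicle they had 18.9% and 17.9% lower and 15.3% and 16.1% higher. Gene ends had 10.7% and 10.1% lower and 14.5% and 14.7% higher. Falls thus outnumbered rises between and inside genes, while rises were slightly more among all members. That excess was gone without the 198 members with the unusual peak shape or strength described further on. Between knockout and control, 418 of the remaining members then stood lower and 416 higher. Between rotenone and vehicle, 418 stood lower and 397 higher. The other classes were not recounted without such regions, so the counts cannot show that members differ from them in direction.

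Between vehicle and control, which differ by the vehicle alone in the labels, 194 members stood lower (7.26%, background 6.07%) and 187 higher (6.99%, background 7%). Spearman's rho of −log10 p over the 2674 members was 0.87 between control and vehicle, 0.84 between knockout and rotenone, and 0.67 to 0.70 for the 4 other pairs. These are descriptions over regions of shared genome and 4 libraries, with no error. The same 2 pairs were the highest at constitutive gene ends, at 0.92 and 0.90.

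A set of 225 members stood lower by 20 points or more in both knockout against control and rotenone against vehicle (8.41%, background 7.94%), and 223 stood higher in both (8.34%, background 7.53%). Constitutive regions between genes, inside genes and at gene ends had 9.86%, 9.51% and 4.54% lower in both. They had 7.37%, 7.94% and 6.78% higher in both. Leaving out the 198 members with the unusual peak shape or strength described further on gave 222 lower (8.97%) and 192 higher (7.75%). The background was not recounted without such regions. Of those 198, 3 stood lower in both and 31 higher. The 2 contrasts share no library. The largest joint fall lay 134942 bp from Med13l, at chr5:118425174-118425602, with folds of 9.36 in control, 4.73 in knockout, 10.1 in vehicle and 5.26 in rotenone. Its standing was 82.6, 10.3, 84.4 and 12.5 in the same order, so control and vehicle were high and the other pair low. This member and the Gm30657 start window printed above are neighbours, and the one at the window did not show that split: its standing was 85.9, 81.4, 89.1 and 89.9.

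**Figure D4:**
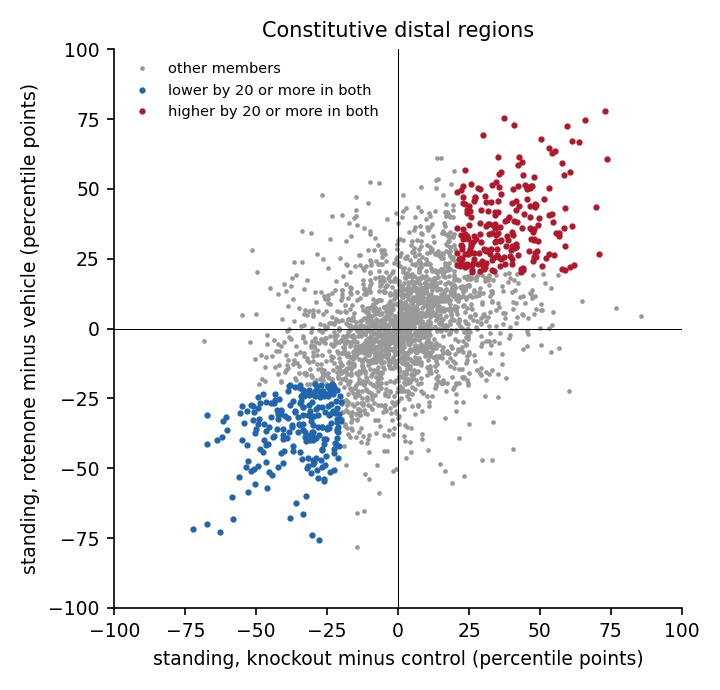
Shift in standing of each of the 2674 constitutive distal regions between knockout and control (x) and between rotenone and vehicle (y), in percentile points. Blue points are the 225 members at least 20 points lower in both and red points the 223 at least 20 points higher in both.

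The 7 other members among the 8 largest joint falls showed the same split. Near Robo1, a receptor of Slit guidance proteins, a member at chr16:73155586-73155724 had folds of 9.74, 4.35, 12.2 and 4.98 in control, knockout, vehicle and rotenone. Near Ets1, an ETS family transcription factor, a member 59059 bp away at chr9:32816670-32817088 had folds of 10.2, 4.78, 11.1 and 4.85. In both, the control and vehicle folds were well above the others. Near Pmepa1, a TGF-β-induced brake on TGF-β signalling, the member at chr2:173377692-173378332 had folds of 10.0, 5.39, 8.89 and 5.39. Near Bnc2, the basonuclin 2 zinc-finger gene, the member at chr4:84203530-84204018 had folds of 10.6, 5.41, 12.3 and 6.07. The remaining 3 lay near Triqk, Dach1 and Atp11b. These 8 were picked as extremes of this measure, so their values are no test of the pattern.

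The joint rises included both ordinary and very narrow peaks. Near Pkdcc, a secreted kinase needed for limb growth, a member at chr17:83138595-83139307, 76332 bp away, had folds of 7.0, 10.1, 5.65 and 8.62 and widths of 713, 718, 714 and 720 bp in control, knockout, vehicle and rotenone. Near App, the amyloid precursor gene, the member at chr16:85297617-85297943 had folds of 6.14, 8.72, 5.63 and 8.60. Knockout and rotenone were the high pair in both. The largest joint rise, 360622 bp from 1700009N14Rik, was 70 bp wide in control and had folds of 5.45, 8.44, 5.70 and 10.0. The one near Gm4907 was 69 bp wide with edges within 10 bp of each other in all 4 lists.

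The largest shifts within a contrast were not always seen in the other. Near Nrg3, a neuregulin, an 80 bp control peak had a standing of 77.2 in control, 8.92 in knockout, 76.5 in vehicle and 71.9 in rotenone, so the knockout library alone was low. Near Ipo11, an importin gene, the standing was 68.5, 1.14, 49.9 and 8.50, so rotenone was low there too. Near Gpr158, an orphan receptor, the standing was 66.9 in control, 52.6 in knockout, 78.5 in vehicle and 0.45 in rotenone, so rotenone was lowest. Near Foxq1, a forkhead factor gene, it was 61.5, 33.6, 83.6 and 7.94, and near Zpld1 it was 58.2, 27.8, 75.3 and 1.48. Near Kitl, the gene of stem cell factor, which melanocytes depend on, the member at chr10:99909980-99910319 stood at 34.4, 75.3, 9.63 and 82.4. That difference had the same direction in both contrasts, with knockout and rotenone high.

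Among the 5 largest rises in knockout, those near Gm2244 and Tank were low in the control library alone. The Gm2244 member stood at 13.4 in control and 99.0, 94.0 and 98.5 in knockout, vehicle and rotenone, and its peak was 82 bp wide in control against 523, 520 and 517 bp. The Tank member, near a gene of an adaptor of TRAF signalling, was 39 bp wide in all 4 lists and stood at 20.5, 97.3, 89.3 and 96.6. The one near Stmn2, a gene of a microtubule-binding protein, stood at 9.10, 79.8, 42.8 and 69.5. The one near Epha6, an ephrin receptor, stood at 10.2, 83.9, 18.2 and 79.0, with control and vehicle the low pair.

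A large rise in rotenone near Esp38, at chr17:39847534-39847947, lay inside Rn18s-rs5, a RefSeq pseudogene related to 18S ribosomal RNA (chr17:39846354-39848202). The member had folds of only 1.52, 1.46, 1.58 and 1.69 in control, knockout, vehicle and rotenone, while its standing went from 0.567 and 4.58 in control and vehicle to 38.1 and 80.1 in knockout and rotenone. The other 2 members that overlap Rn18s-rs5 showed higher standing in knockout and rotenone too. The one at chr17:39848123-39848824 stood at 49.7, 93.5, 55.5 and 91.6, with folds of 1.87 to 1.97. Ribosomal RNA genes are present in many copies, and reads from other copies can align to such a site. Their part in these values was not tested.

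The members lay between 50008 and 1808526 bp from the nearest gene end, with a median of 131366 bp. Their density in distal sequence fell with distance, from 4.44 per Mb at 50 to 100 kb to 3.27 at 100 to 200 kb, 2.22 at 200 to 500 kb, 1.05 at 500 to 1000 kb and 0.541 beyond. The share of distal strong peaks that were constitutive did not follow distance, with 60.1%, 61.7%, 63.4%, 60.9% and 66.7% in the same bins and overlapping intervals. Median fold was also alike, between 7.44 and 8.54 in control, while control width fell from 393 bp in the nearest bin to 259 bp in the farthest.

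The farthest member lay 1808526 bp from Iftap, at chr2:99752210-99752296, with folds of 8.53, 6.13, 7.10 and 7.14 in control, knockout, vehicle and rotenone. The other 4 of the 5 farthest lay near Cntnap5a, G6pd2, Ctnna2 and Pcdh17, all at least 1690242 bp away. Cntnap5a, Ctnna2 and Pcdh17 are genes of neuronal cell contact, and their members were under 110 bp wide in control, at 108, 84 and 79 bp. The one near Cntnap5a was strong, with folds of 16.5, 21.2, 21.1 and 19.6.

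Chromosomes differed in how many members they held per Mb of distal sequence. The value was 2.65 over the genome, 5.38 on chromosome 9, 4.12 on chromosome 13, 0.781 on X and 0.184 on Y. Distal sequence was counted in full, whether or not reads can be placed on it. Leaving out the 198 members with the unusual peak shape or strength described further on gave 3.98 on chromosome 9 and 3.99 on chromosome 13. The values were then 0.666 on X and 0.0613 on Y, where 4 of 12 members remained. Without those members chromosome 9 was no denser than chromosome 13.

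Members were nearest to 1367 protein-coding genes, which is 28.7% of the 4756 genes that have any distal sequence beside them. Most of the gene lists had more members per Mb of their distal sequence than genes as a whole, those of other cell types included, and genes of neuronal contact had fewer. Transcription factors of fibroblasts and limb mesenchyme had 111 members, near 50 of 83 genes with distal sequence, or 3.95 per Mb against 2.65 over all genes. Growth factors and niche signals had 55 members (6.29 per Mb), collagen and matrix genes 42 (4.09) and cell cycle and senescence genes 22 (5.23). Signalling receptors had 40 (2.40), near the value over all genes. Neuronal adhesion and guidance genes had 61 over a far larger territory (0.790). Lists with little distal sequence had high values from few members: AP-1 subunits had 5 (21.2 per Mb), endothelial markers 10 (11.2), keratinocyte markers 1 (8.03), immune markers 3 (5.99) and antioxidant genes 5 (3.82). The higher density was therefore not particular to fibroblast genes.

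Density depends on distance, so the same was counted within 200 kb of a gene end. There it was 3.83 per Mb over all genes, 5.08 for the mesenchyme factors, 6.62 for growth factors, 5.92 for matrix genes, 10.4 for cell cycle genes, 3.72 for receptors and 1.48 for neuronal genes, and 16.1 for endothelial and 6.67 for immune markers. Each of these lists stayed on the same side of the value over all genes. The lists hold few genes each, and a nearest gene need not be the target of a region.

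**Figure D5:**
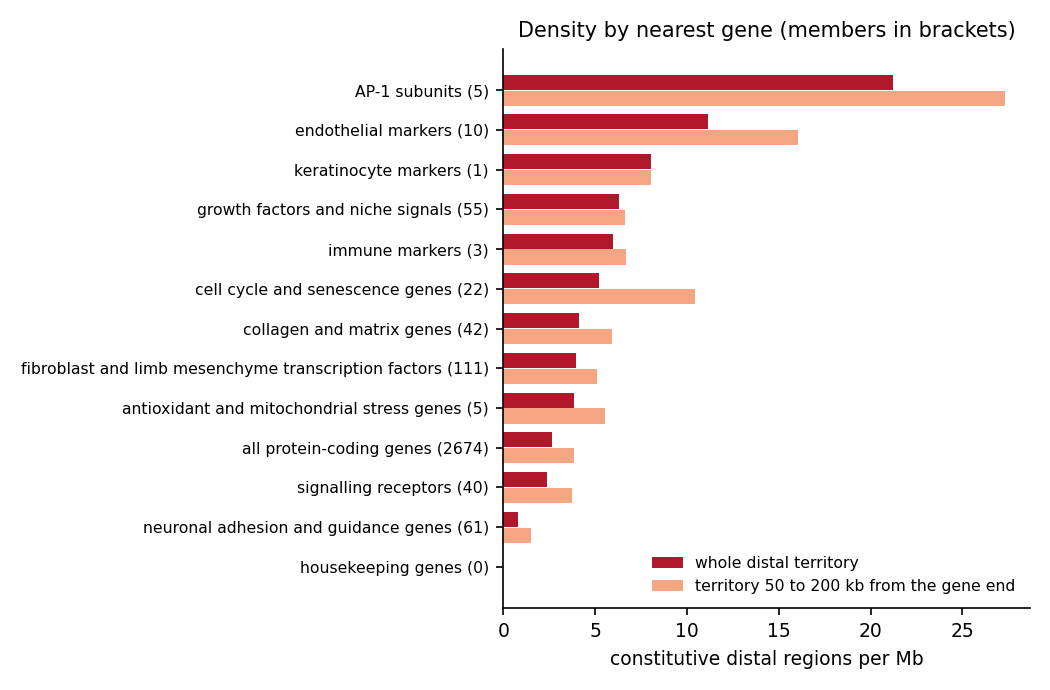
Constitutive distal regions per Mb of distal sequence, by the list that holds the nearest protein-coding gene (number of members in brackets). Dark bars use all distal sequence and light bars that from 50 to 200 kb of a gene end. AP-1 subunits lie highest, at 21.2 from 5 members over all distal sequence. Neuronal genes lie lowest of the lists that have members, at 0.790 and 1.48.

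Among the mesenchyme factors, Gli3 had 7 members between 72462 and 251088 bp away. Their median fold was 9.41 in control, 6.77 in knockout, 8.53 in vehicle and 6.65 in rotenone. The median standing was 72.1, 52.3, 69.9 and 37.4. Nr2f2, a nuclear receptor of mesenchyme, had 6, with median folds of 11.0, 8.55, 11.3 and 8.64 and a standing of 69.95 to 79.1. The Gli3 members did not move together: 3 stood lower in both knockout against control and rotenone against vehicle, and 3 stood higher in both. Of the Nr2f2 members, 4 stood lower in both contrasts. Such counts, here and for the genes below, take a shift of any size, and the share over all members was not counted. Without that share they cannot show that the members of a gene differ from the others. Bcl11b, a zinc-finger factor, had 4, with median folds between 7.18 and 7.63.

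Of the AP-1 genes, Jun had 4 members and Jdp2, an AP-1 repressor, had 1. The Jun members lay 53314 to 109316 bp away, with median folds of 7.69, 5.88, 7.84 and 6.34 and a median standing of 59.3, 41.7, 63.4 and 39.6 in control, knockout, vehicle and rotenone. All 4 stood lower in rotenone than in vehicle, and 3 of these also stood lower in knockout than in control. Only 4 of the 14 AP-1 genes have any distal sequence beside them, so most of the family, Junb included, could not be nearest to a member.

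Growth factor genes were led by Gdf6, a bone morphogenetic protein, with 9 members between 96823 and 495288 bp. Their median fold was 8.95, 7.92, 9.08 and 10.5 in control, knockout, vehicle and rotenone, highest in rotenone. The nearest, at chr4:9958965-9959372, and the one at chr4:9959500-9959620 have the unusual peak shape or strength described further on. The medians were not recounted without them. Jag1, a Notch ligand, had 7, with median folds of 8.46, 5.86, 8.14 and 6.38. Cxcl12, a chemokine made by fibroblasts, had 4, with 8.14, 6.60, 8.39 and 6.17. For these 2 genes the control and vehicle medians were the higher pair. Among receptors and their ligands, Efnb2, a membrane-bound ephrin, had 7 members, Efna5, another ephrin, 5 and the ephrin receptor Epha7 had 4.

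Among matrix genes, Fn1 had 4 members with median folds of 7.92, 5.73, 7.13 and 5.76, and Adamts5, a protease of cartilage matrix, had 4 with 7.64, 7.46, 7.68 and 8.65. Mmp16, a membrane-type metalloproteinase, had 4 with 7.73, 7.23, 6.62 and 8.52. Their median standing was 39.1 in control, 60.7 in knockout, 18.7 in vehicle and 62.2 in rotenone, and all 4 stood higher in both contrasts. The Fn1 members had a median standing of 41.3, 34.1, 27.1 and 25.8, with 2 lower in both contrasts and 2 higher in both.

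Of the cell cycle genes, Myc had 7 members with median folds of 9.14, 5.46, 9.01 and 6.18 and a median standing of 57.7, 25.4, 64.7 and 31.8. All 7 stood lower in knockout than in control and lower in rotenone than in vehicle. Over all members the median shift was 0.437 points in knockout against control and 0.0102 points in rotenone against vehicle. Ccng1, the cyclin G1 gene, had 4, with a median standing of 40.1, 55.6, 41.4 and 57.3, and 3 of them stood higher in both contrasts. Cdkn2b, the gene of the inhibitor p15, had 3, with a median standing of 93.4, 94.4, 96.9 and 90.7 and a lowest one of 62.2, 50.7, 51.2 and 35.2 in control, knockout, vehicle and rotenone. Each median is taken over a few regions that may share a chromatin domain.

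Among antioxidant genes, Nfe2l2, the gene of NRF2, had 2 members, Ppargc1a, a regulator of mitochondrial biogenesis, had 2, and Sod3, the extracellular superoxide dismutase, had 1. The Sod3 member had folds of 10.7, 8.90, 14.7 and 10.4. Housekeeping genes had none, but just 2 of 17 have distal sequence. Of the other cell types' markers, Cdh5, the endothelial cadherin, had 7 members with a median standing of 71.4, 43.3, 56.6 and 43.6. Kdr, an endothelial receptor of VEGF, had 2, Ptprc, an immune phosphatase gene, had 3, and Emcn and Epcam had 1 each. A nearest gene is no sign that the gene is used in these cells.

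Apart from Gdf6, the named genes with most members were Alkbh8 with 54, Rab39b with 12, Camk1g with 10, and Lrig3 and Nt5e with 9 each. Arrdc3, Ets1, Flrt2, Gas1 and Reep3 followed with 8 each. The 9 members near Nt5e, which encodes the ectonucleotidase CD73 of mesenchymal cells, had median folds of 8.87, 7.13, 9.28 and 8.0 in control, knockout, vehicle and rotenone. The 8 near Gas1, a Hedgehog co-receptor, had 9.0, 6.90, 9.67 and 7.04. The 8 near Flrt2, a cell adhesion and guidance gene, had 8.68, 6.01, 8.43 and 6.27, and the 8 near Ets1 had 6.73, 4.73, 7.08 and 5.46. In these 4 sets control and vehicle were the higher pair, as over all members. The 8 near Arrdc3 differed, with 7.48, 7.94, 7.76 and 7.5.

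Many members lay in groups. When members within 50000 bp were chained, 1279 of 2674 (47.8%) had at least 1 other in their group, and 65 groups held 4 or more. Beside Trib1, a pseudokinase gene, 9 members spread over chr15:59728160-59845885 with median folds of 8.27, 6.40, 8.45 and 7.09. Between Max, the partner of Myc, and Fut8, a fucosyltransferase gene, 8 members spread over chr12:77019802-77166803 with 7.15, 5.64, 8.36 and 5.51. The standing of the Max and Fut8 group was 53.5, 42.9, 55.7 and 23.5, lowest in rotenone, while that of the Trib1 group was 43.9 to 51.8 in the 4 libraries.

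The 3 largest groups had narrower control peaks than these, with median widths of 83, 162 and 124 bp against 526 and 524.5 bp. At the start of chromosome 9, 49 members lay within chr9:3000014-3037449, at least 297817 bp from Alkbh8, the nearest gene. Their median fold was 3.00, 2.86, 2.97 and 2.96 in the control, knockout, vehicle and rotenone lists. Their median control width was 83 bp, and 24 had edges within 10 bp of each other in all lists. Their median standing was 65.6, 88.8, 72.2 and 90.5. A group of 12 at chr14:19415722-19419695 near Gm2244 had median folds of 2.93, 3.20, 2.92 and 3.29 and a standing of 93.6 to 98.8. A group of 12 at chrX:75643532-75674562 near Rab39b had 6.94, 6.77, 7.90 and 8.10, with a standing of 67.3, 90.6, 55.6 and 88.4.

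Low fold with a high −log10 p, peaks with the same edges in every library and extreme −log10 p were more common among members than in other classes. Edges within 10 bp of the control peak in all 4 lists were found in 125 members (4.67%), against 3.16% between genes, 1.64% inside genes and 0.475% at gene ends. A fold under 3 in any list was found in 56 members (2.09%), against at most 0.0988% in the other classes. A −log10 p over 300 in any list was found in 71 members (2.66%), against 1.39%, 0.621% and 1.10%. Together 198 members had at least 1 of these marks, and 2476 had none. Neighbouring peaks count separately here, as in the groups of 49 on chromosome 9 and 12 on chromosome 14. The number of separate loci behind these shares was not counted. The marks were set after the values had been seen.

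These members crowd at the top of the lists. Of the 39 members whose mean rank over the 4 lists was at most 100, 19 had equal edges (48.7%), against 2.75% of those with a mean rank over 10000. Members with equal edges had a median control width of 83 bp, against 388 bp for the others. The best mean rank, 7, was that of chr18:3638866-3639153 near Bambi, a decoy receptor that dampens TGF-β signals, with folds of 32.7, 33.1, 33.2 and 33.9 in control, knockout, vehicle and rotenone and a width of 288 bp in each. The next, chr8:29965414-29965452 near the netrin receptor gene Unc5d, was 39 bp wide with folds of 121, 122, 123 and 125. Neither differed between libraries in edge or height.

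The other 8 of the 10 best mean ranks lay near Tusc3, Gdf6, G6pd2, Gm6760, Gm42163, Pex2, Nxph1 and Ccnh. At Ccnh, the cyclin H gene, the peak spanned 10450 bp in control and 9985 bp in rotenone with folds of 1.09 and 1.15, and 963 bp in knockout and in vehicle with folds of 11.0 in both. The fold of that member followed how wide the peak had been drawn. Peaks of this kind are known from DNA repeats and from nuclear copies of mitochondrial DNA, where reads from many places collect, and the part of such reads here was not tested.

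With those 198 left out, the 10 best in mean rank had control widths of 386 to 879 bp. A good mean rank over the 4 lists favours regions that are alike in them. The first, chrX:75673836-75674562 near Rab39b, had folds of 12.2, 11.5, 12.6 and 11.5 and widths of 727, 694, 715 and 680 bp. The second, chr1:23255893-23256470 near Ogfrl1, had 13.7, 14.9, 14.1 and 15.6. Near Slit3, a secreted guidance protein, the member at chr11:35065915-35066380 had 16.4, 13.9, 15.9 and 16, and near Tm4sf1, a tetraspanin-like gene, that at chr3:56962591-56962976 had 18.9, 16.6, 18.9 and 18.1. These 4 ranked within the best 515 in every list. Others of the 10 varied more, such as the member near Otol1 with folds of 17.9, 15.7, 21.6 and 20, and that near Dad1 with 13.4, 13.5, 17.3 and 14.9. Of the 198 marked members, 51 stood higher in knockout than in control by 20 points or more (25.8%) and 14 lower (7.07%). Among the 2476 others the counts were 416 (16.8%) and 418 (16.9%), so higher and lower calls in knockout were nearly equal in number once the marked members were left out.

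Far from protein-coding genes did not mean far from any annotated gene. Of the members, 522 lay inside a lncRNA gene (19.5%, 18.1 to 21.1) and 141 within 1000 bp of the end of such a gene (5.27%, 4.49 to 6.19). The second share was 5.09% among distal strong control peaks that were not constitutive, 2.12% among distal control peaks of any strength, and 2.64% when members were moved by 10000 bp. The first share changed less on moving, to 18.1%. Strong distal peaks thus lay near lncRNA ends more often than distal peaks of any strength, and the shares of shared and unshared strong peaks had overlapping intervals.

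No member had its midpoint in a miRNA gene, and 3 had it within 1000 bp of one (0.112%, against 0.048% of all distal control peaks and 2 members after a move by 10000 bp). The member beside Mir5099 overlaps that gene at its edge. Beside Mir206, a muscle miRNA, the folds were 9.86, 6.13, 11.1 and 7.17 in control, knockout, vehicle and rotenone, and beside Mir30a they were 8.69, 5.87, 8.39 and 7.71. Beside Mir5099 they were 18.6, 24.5, 23.3 and 25.9, with control the lowest. A member had another strong control peak within 10000 bp in 32.0% of cases, against 45.6% for constitutive regions between genes, 42.4% inside genes, 35.2% at gene ends and 26.9% for unshared distal peaks. The mean number of such neighbours was nonetheless highest for members, at 0.936, against 0.475 to 0.666 in the other constitutive classes, since some members lie in dense groups.

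At the edges of the rule, the members closest to the distance limit lay 50008 bp from Adgrl2, 50042 bp from Wif1 and 50054 bp from Dph5. Just under it were constitutive peaks 49904 bp from Mreg, 49880 bp from Gm53057 and 49858 bp from Gpc5. The members with the weakest rank in any list were near Chrd (30000 in control), Cenpw (29987 in vehicle) and Osr1 (29966 in rotenone). Just outside were control peaks near Pard3b, whose vehicle partner ranked 30004, and near 1700129C05Rik and Elavl2, whose knockout partners ranked 30011 and 30013.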

How the data were processed

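Peak lists of 4 ATAC-seq libraries (1 per group) were used as the authors deposited them. Per the submitters' processing notes, Bowtie2, bedtools, MACS2 and HOMER were used with build mm10; the sources used here do not state their versions or settings, or the read depth. Each deposited peak has a position, a fold enrichment (ratio over background), a −log10 p and a −log10 q, and lists reach down to a −log10 q of about 1.00. Every fold and −log10 value is the authors' own.

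Peaks on chromosomes 1 to 19, X and Y were ranked by −log10 p, ties by fold. Overlap meant 1 bp or more, and where a control peak met several partners the one with the highest −log10 p was used. Genes were the 21887 protein-coding genes of RefSeq GRCm38.p6, and "any gene end" in the member rule was read as a protein-coding gene end. Intervals are 95% Wilson intervals and cover counting error only. Since sequence was available only for gene starts, the planned motif search on peak centres was replaced by one on start windows of which a member covers 150 bases or more.

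Members, gene lists and named regions were chosen with earlier results of these data known. Named were the 10 members best in mean rank, the 5 farthest from genes, the 5 largest shifts in standing per contrast and direction, the 10 genes and 5 groups with most members, up to 3 genes per list, and the members at the limits of the rule; the 8 largest joint shifts and the strongest members after leaving out marked ones were added after seeing the data. Some items that these rules select are not reported here. Alternatives were other list lengths, ranking, overlap, distance, gene types, chromosomes, widths and starting lists. The code that finds members was checked on simulated regions planted in the lists well above the rank limit. That check says nothing about regions near the limit. Python 3.11.15, pandas 2.3.3, numpy 2.4.6, scipy 1.17.1 and matplotlib 3.10.9 were used.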

Additional observations from a re-analysis of the deposited data

How the results depend on the processing

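No paired analysis was possible because each group has 1 library and the labels carry no replicate numbers. For the same reason no library could be left out of a group, and no value has an error between preparations; read depth is unknown. The gene-end share exceeded the distal share under every alternative run, by 12.3 to 22.5 percentage points (18.6 as reported).

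With the 15000 strongest peaks per list there were 1265 constitutive distal regions, with a gap to gene ends of 15.1 points, a median control fold of 9.43, a width of 427 bp and a standing of 46.5. With 60000 peaks there were 5476, of which the share constitutive was 57.1%, the fold 6.03, the width 312 bp and the standing 45.7. Ranking by fold gave a share of 59.1% and a standing of 46.5. Asking that 50% of the control peak be covered gave a share of 55.3%, a gap of 12.3 points and a width of 356 bp. Over 100000 bp from a gene end there were 1689 regions. When all RefSeq gene types counted as genes there were 738, with a share of 63.7%, a gap of 13.2 points, a fold of 8.07 and a width of 361.5 bp. Leaving out peaks under 150 bp gave a share of 64.0%, a fold of 7.48 and a width of 404 bp. Starting from the knockout list gave a share of 58.2% and a gap of 22.5 points, and from the rotenone list 57.8% and 21.6 points. Leaving out regions with equal edges, chosen after seeing the data, gave a width of 388 bp. Counting both flanking genes raised the members next to a listed gene from 355 to 673. By list it raised them from 111 to 215 for mesenchyme factors, 55 to 103 for growth factors, 40 to 91 for receptors, 42 to 79 for matrix genes, 61 to 143 for neuronal genes, 22 to 35 for cell cycle genes and 5 to 9 for AP-1 subunits, and those for immune, keratinocyte and housekeeping genes also moved by over 1.5 times, to 5, 2 and 1. The other values stayed within 1.5 times the count or inside the 95% interval of the value reported. The planned motif search on peak centres and its alternatives were not run, since they need a genome.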
